A study of Mus musculus with 18 samples.

Results

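The genes described are 10 genes of NRF2-directed and glutathione-based antioxidant defence, chosen by name (Nfe2l2, Keap1, Slc7a11, Gclc, Gclm, Nqo1, Txnrd1, Srxn1, Gsr and Gpx4) from a table of 55450 mouse genes. All 10 had counts in all 18 libraries and all 10 were among the 12025 genes that passed the filter on low values, an FPKM (read density scaled for transcript length and library depth) of 1 or more in 3 or more libraries. The libraries came from bone marrow derived macrophages (BMDMs), cells grown from mouse marrow for 7 days in medium with 20% L929 conditioned medium. Every group then received GM-CSF (20 ng/ml) over 24 h as priming and was kept in 1% FBS for the 6 h experiment, so the non-treated controls were primed cells as well. Monosodium urate (MSU) crystals, the crystals of gout, were given at 0.2 mg/ml, and apigenin, a plant flavonoid that inhibits the NAD-consuming enzyme CD38, at 25 uM. The 6 groups of 3 replicates were CD38KO + MSU and CD38KO non-treated, and from WT mice the groups WT + MSU + apigenin, WT + apigenin, WT + MSU and WT non-treated. WT and CD38KO mice were both on the C57BL6/J background, and no apigenin-treated CD38KO group is analysed here.

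NRF2, encoded by Nfe2l2, is a transcription factor that KEAP1 holds in the cytoplasm and hands to the proteasome. When electrophiles or oxidants modify KEAP1, NRF2 accumulates, pairs with small MAF proteins and binds antioxidant response elements near genes of glutathione synthesis, thioredoxin recycling and quinone reduction. In macrophages this programme limits oxidative injury during the respiratory burst, and cystine uptake through SLC7A11, glutathione and GPX4 together keep lipid peroxides low. Much of NRF2 control lies in the stability of the protein, which the RNA level of Nfe2l2 does not report.

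On GRCm38 (GENCODE M21) the genes are protein-coding and lie on 5 chromosomes, each value below being summed over a whole gene. Nfe2l2 spans chr2:75675513-75704641, Srxn1 chr2:152105516-152111376, Slc7a11 chr3:49892526-50443614 and Gclm chr3:122245557-122270732. Nqo1 spans chr8:107388225-107403206, Gsr chr8:33652523-33698163, Keap1 chr9:21229730-21239361 and Gclc chr9:77754535-77794485. Gpx4 spans chr10:80047166-80056439 and Txnrd1 chr10:82833951-82897712. Nfe2l2, Keap1, Slc7a11 and Nqo1 are on the minus strand and the others on the plus strand.

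To show what lies upstream of genes called higher with MSU crystals in WT, the 250 bases before the annotated start are printed for Slc7a11, Srxn1, Gclm and Txnrd1 (the second of its 3 annotated starts). The sequences are from RefSeq on GRCm38.p6, where 8 of the 10 genes had an entry (all but Gclc and Gsr), and capitals mark a match to a searched motif on either strand. The motifs were the antioxidant response element core TGANNNNGC, the AP-1 site TGANTCA and the amino acid response element TGATGNAA, which the ATF4 family binds.
Slc7a11: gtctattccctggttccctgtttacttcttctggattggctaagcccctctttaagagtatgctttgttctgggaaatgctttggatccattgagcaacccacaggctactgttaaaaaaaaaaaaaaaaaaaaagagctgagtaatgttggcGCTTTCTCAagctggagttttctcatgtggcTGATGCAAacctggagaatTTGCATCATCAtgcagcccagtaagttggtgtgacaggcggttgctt
Srxn1: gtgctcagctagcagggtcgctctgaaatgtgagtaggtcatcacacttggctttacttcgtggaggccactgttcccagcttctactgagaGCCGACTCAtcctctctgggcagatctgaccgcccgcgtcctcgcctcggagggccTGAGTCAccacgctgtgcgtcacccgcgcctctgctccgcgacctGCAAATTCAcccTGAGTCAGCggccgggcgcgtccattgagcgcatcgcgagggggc
Gclm: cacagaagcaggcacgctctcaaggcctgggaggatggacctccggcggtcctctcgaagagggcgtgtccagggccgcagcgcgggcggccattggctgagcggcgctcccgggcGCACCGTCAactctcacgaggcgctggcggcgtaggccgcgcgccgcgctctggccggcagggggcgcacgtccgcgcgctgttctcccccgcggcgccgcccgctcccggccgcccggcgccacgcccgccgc
Txnrd1: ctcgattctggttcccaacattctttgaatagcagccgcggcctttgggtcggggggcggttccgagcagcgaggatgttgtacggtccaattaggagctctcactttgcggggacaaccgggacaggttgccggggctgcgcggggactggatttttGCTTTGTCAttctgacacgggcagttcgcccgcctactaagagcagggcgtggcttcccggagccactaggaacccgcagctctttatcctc
The Slc7a11 stretch is chr3:50443614-50443863 on the minus strand, that of Srxn1 chr2:152105274-152105523 on the plus strand, that of Gclm chr3:122245307-122245556 on the plus strand, and that of Txnrd1 chr10:82858956-82859205 on the plus strand. The Slc7a11 promoter held the amino acid response element TGATGCAA on each strand, with first bases at -66 and -47 from the start, facing each other, and antioxidant response element cores at -97 and -45, the latter overlapping the second amino acid response element. The amino acid response element occurred in 3.45% of the 32851 RefSeq promoter stretches of this length. The Srxn1 promoter held the AP-1 site TGAGTCA at -102 and at -45, the latter inside the antioxidant response element core TGAGTCAGC, and 2 further cores at -158 and -57. AP-1 sites occurred in 6.75% of promoter stretches. The Gclm promoter held the core TGACGGTGC at -134 and Txnrd1 the core TGACAAAGC at -92, both on the opposite strand. Of the other Txnrd1 starts, the first held no match to a searched motif, and the third held an antioxidant response element core at -84. This core occurred in 35.2% of all promoter stretches, so single matches are common. Nfe2l2 and Keap1 each held 1 core, at -240 and -61, and in Nqo1 and Gpx4 these letters were not in the window.

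The libraries held 51058336 to 83209648 counts, and the 10 genes had between 136 counts (Nqo1 in 1 WT + MSU + apigenin library) and 84972 counts (Srxn1 in 1 WT + MSU library), so that the spread between replicates rather than counting error sets the precision. Nothing in the labels says whether replicates came from separate mice, and p-values measure only the spread between these samples. Cd38 was 0.301 to 1.17 CPM (counts scaled to library size with TMM factors) in the 6 CD38KO libraries and 18.4 to 92.9 CPM in the 12 WT libraries. The macrophage markers Adgre1, Csf1r, Cd68 and 4 others were detected in every library, with a summed level of 11060 to 23451 CPM without apigenin and 46488 to 63255 CPM with it. Libraries 1 and 2 of each WT group stood apart: their summed level of 9 neutrophil markers was 155.2 to 333.2 CPM, against 8.40 to 25.2 CPM in library 3 of each WT group and 8.86 to 23.2 CPM in CD38KO. The summed level of 7 fibroblast markers was 1448 to 6707 CPM in WT libraries 1 and 2, 588 to 1836 CPM in WT libraries 3 and 84.2 to 323.8 CPM in CD38KO, so it moves with genotype in every comparison of CD38KO against WT. These WT ranges include the 6 libraries with apigenin, which held 1529 to 6707 CPM. The TMM factors were 0.667 to 0.837 with apigenin and 1.06 to 1.31 without, and mitochondrial genes took 9.60% to 13.3% of counts with apigenin and 3.50% to 6.61% without. Which of the 6 libraries with apigenin also received MSU crystals differs between their titles and their treatment tag. The titles were followed, and for the 10 genes the counts with the tag are given where they differ.

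In non-treated WT cells, levels per transcript length spanned from Gpx4, a peroxidase for lipid hydroperoxides, to Slc7a11, the light chain of the cystine importer. Gpx4 stood at 155.2, 145.2 and 273.9 FPKM and Nfe2l2 at 141.6, 134.4 and 145.7 FPKM in libraries 1, 2 and 3. Srxn1, which encodes sulfiredoxin, the enzyme that rescues over-oxidised peroxiredoxins, stood at 41.2 to 45.2 FPKM. These were followed by Txnrd1 (cytosolic thioredoxin reductase) at 24.0 to 34.7 FPKM and Gsr (glutathione reductase) at 21.7 to 36.1 FPKM. Gpx4 and Nfe2l2 overlapped, as did Txnrd1 and Gsr. Keap1 at 10.5 to 13.8 FPKM, Gclm at 11.0 to 15.1 FPKM, Nqo1 at 6.95 to 13.8 FPKM and Gclc at 9.51 to 11.05 FPKM overlapped with their neighbours in the order. Slc7a11 lay below all of them at 1.71 to 3.06 FPKM. With MSU crystals the order of the mean levels changed, and Srxn1 moved from rank 3 to rank 1 at 269.3, 356.8 and 203.8 FPKM, overlapping with Nfe2l2 at 204.8 to 248.5 FPKM.

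To see which of these genes respond to the crystals, WT + MSU was compared with WT non-treated. With MSU crystals the transcripts of genes for cystine import (Slc7a11), glutathione synthesis (Gclc and Gclm), thioredoxin reduction (Txnrd1) and peroxiredoxin repair (Srxn1) rose, while Nfe2l2, Keap1, Nqo1, Gsr and Gpx4 did not pass the test. A gene was called when its log2 fold change (log2FC) reached 1 in size and its adjusted p lay below 0.05. 5 of the 10 genes were called higher, where 2.03% of the 12025 tested genes were. None was called lower by edgeR, DESeq2 or limma (0 of 10, in edgeR also at an unadjusted p under 0.05), where 1.55% of tested genes were. Slc7a11 stood at 36.4, 27.2 and 23.1 CPM in WT non-treated libraries 1, 2 and 3 and at 148.7, 227.8 and 285.5 CPM in WT + MSU. The groups lay far apart, and the rise was 7.64-fold (log2FC 2.93 ± 0.46, SE, n = 3 per group, adjusted p = 0.0021, edgeR's quasi-likelihood test with Benjamini-Hochberg adjustment over all tested genes). Gclc, whose product is the catalytic part of the rate-limiting enzyme of glutathione synthesis, glutamate-cysteine ligase, went from 30.6, 34.95 and 40.3 CPM to 123.7, 162.4 and 129.8 CPM. Its log2FC was 1.97 ± 0.36 (adjusted p = 0.0051, edgeR), and every treated library lay far above the controls. Both calls held in all 18 fits that left out 1 library in turn.

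Txnrd1 went from 145.0, 159.7 and 238.3 CPM to 492.6, 824.9 and 613.9 CPM with MSU crystals, a log2FC of 1.83 ± 0.47 (adjusted p = 0.031, edgeR). Srxn1 went from 99.2, 96.6 and 123.5 CPM to 699.8, 913.5 and 586.3 CPM, a log2FC of 2.78 ± 0.79 (adjusted p = 0.048, edgeR). In neither gene did the libraries of the 2 groups overlap. The Txnrd1 call was lost without WT + MSU replicate 2 (adjusted p = 0.11) or 3 (0.068) or WT non-treated replicate 1 (0.11), 2 (0.11) or 3 (0.054). The Srxn1 call was lost in 13 of the 18 fits without 1 library, at adjusted p of 0.052 to 0.15, namely without any single one of the 6 compared libraries and without CD38KO + MSU replicates 1 and 3, CD38KO non-treated replicates 1 and 2, WT + apigenin replicates 1 and 2 and WT + MSU + apigenin replicate 2. Srxn1 had the largest SE of the 10 genes, and 1 library lay more than 4-fold below both others in 3 groups (CD38KO non-treated, CD38KO + MSU and WT + MSU + apigenin), a gap that 3.46%, 3.64% and 6% of tested genes showed in those groups.

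Gclm, the modifier subunit that raises the activity of GCLC, went from 58.9, 60.3 and 92.0 CPM to 144.4, 178.2 and 166.8 CPM, a log2FC of 1.21 ± 0.31 (adjusted p = 0.031, edgeR). The groups did not overlap. The Gclm call was lost without WT + MSU replicate 1 (adjusted p = 0.057), 2 (0.098) or 3 (0.082) or WT non-treated replicate 1 (0.12) or 2 (0.12). The gene is overlapped on the opposite strand by Gm17494, which held 3386 to 25748 counts per library against 1595 to 16578 for Gclm. The libraries were made with a stranded kit, but the sources used here do not say whether the counting used strand, and without it reads of the 2 genes cannot be told apart. Summed with Gm17494, the log2FC was 0.71 ± 0.40 (adjusted p = 0.36, edgeR), a setting chosen after seeing the data.

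Of the genes that were not called, Nfe2l2 itself came closest. It stood at 459.1, 429.2 and 535.7 CPM in WT non-treated and at 716.7, 856.5 and 907.2 CPM in WT + MSU, with no overlap, and its log2FC was 0.80 ± 0.47 (adjusted p = 0.38, edgeR). With Nfe2l2, 6 of the 10 genes had every MSU library above every control, where 14.8% of tested genes had. Keap1 stood at 47.7 to 54.3 CPM without and 50.3 to 64.4 CPM with MSU crystals (log2FC 0.17 ± 0.18, adjusted p = 0.701). Nqo1, the quinone reductase that is the textbook reporter of NRF2 activity, stood at 9.09 to 20.8 CPM and 13.2 to 24.8 CPM (log2FC 0.25 ± 0.54, adjusted p = 0.88). Gsr had a log2FC of 0.52 ± 0.37 (adjusted p = 0.49) and Gpx4 of -0.42 ± 0.31 (adjusted p = 0.52). In both the groups overlapped. With the WT groups reduced to library 3, the libraries low in neutrophil markers, none of the 10 genes was called, and the log2FC was 3.63 for Slc7a11, 1.69 for Gclc, 0.86 for Gclm, 1.37 for Txnrd1 and 2.25 for Srxn1. That fit has 1 library per WT group and takes their spread from the CD38KO libraries.

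**Figure D1:**
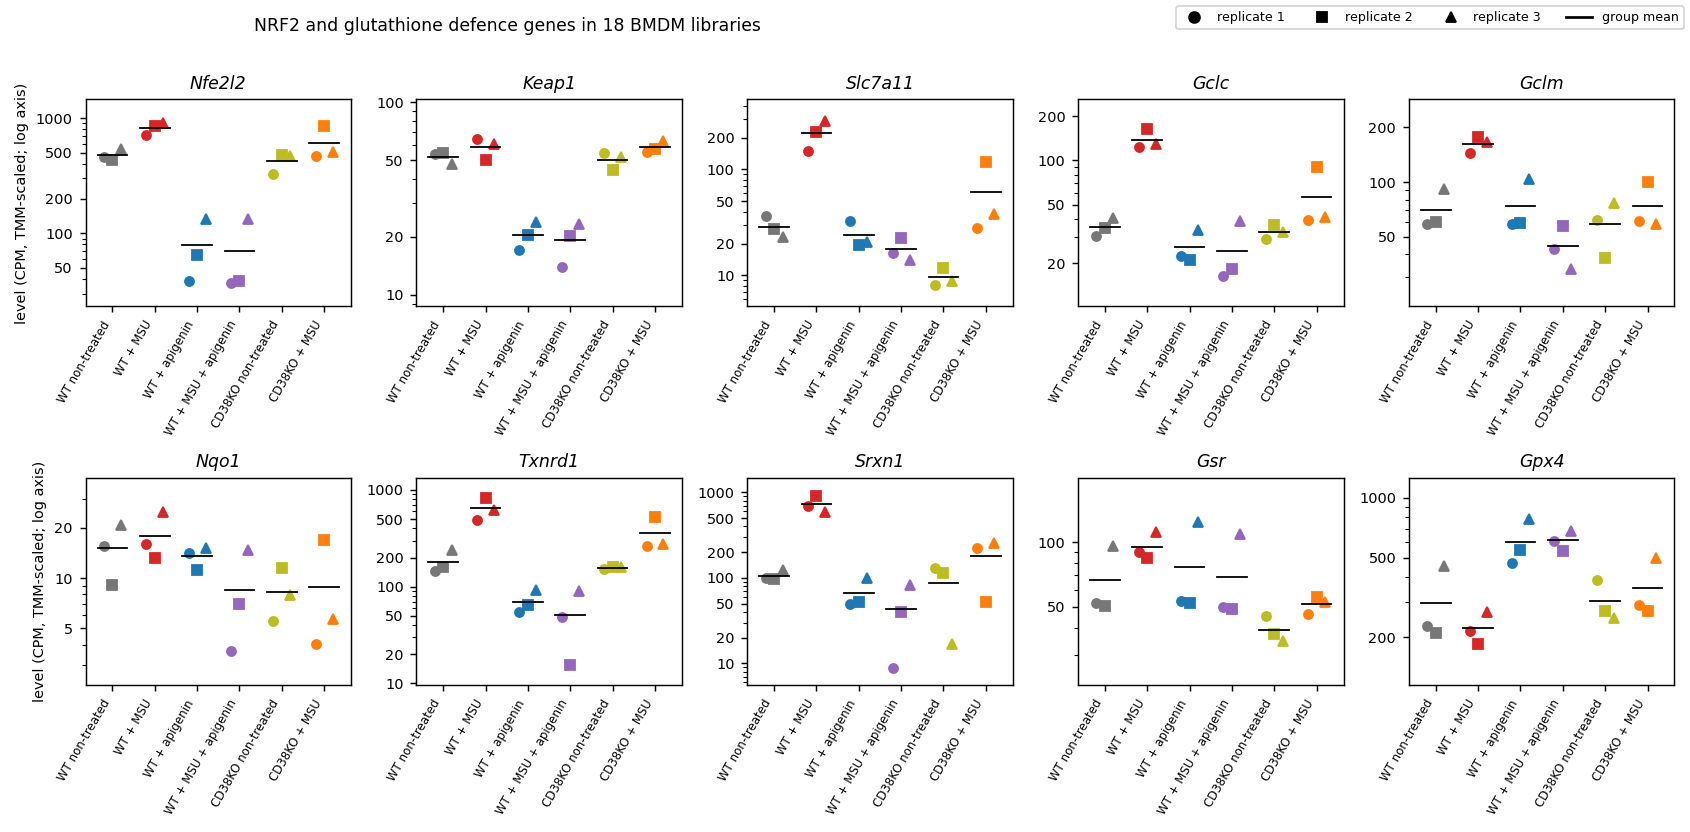
Level of each of the 10 genes in every library (TMM-scaled CPM on a log axis) by group, with circles, squares and triangles for replicates 1, 2 and 3 and a bar for the group mean of 3. With MSU crystals in WT, Slc7a11 lay at 148.7 to 285.5 CPM against 23.1 to 36.4 CPM in controls, while with apigenin under MSU it lay at 14.0 to 22.5 CPM.

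The same exposure was then examined in cells without CD38. In CD38KO BMDMs 1 of the 10 genes was called higher with MSU crystals, Slc7a11, where 1.52% of tested genes were called higher and 0.482% lower. Slc7a11 stood at 8.17, 11.7 and 8.94 CPM in CD38KO non-treated and at 27.7, 117.3 and 37.8 CPM in CD38KO + MSU, a log2FC of 2.67 ± 0.46 (adjusted p = 0.0065, edgeR). All 3 treated libraries lay above the controls, with replicate 2 far above the other two. The call held in all 18 fits without 1 library and was lost when the CD38KO groups were fitted alone (adjusted p = 0.080). 5 of the 10 genes had no overlap, all higher with MSU crystals (Slc7a11, Gclc, Txnrd1, Gsr and Keap1), where 13.4% of tested genes were higher and 13% lower in every treated library. Gclc stood at 29.3, 36.6 and 32.6 CPM without and 39.4, 90.0 and 41.1 CPM with MSU crystals (log2FC 0.79 ± 0.35, adjusted p = 0.25). Txnrd1 stood at 153.8, 158.9 and 160.5 CPM and at 263.4, 525.0 and 278.3 CPM (log2FC 1.17 ± 0.46, adjusted p = 0.198). These genes lay above their controls in every treated library without passing the test.

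CD38KO + MSU replicate 2 was the highest of its group for Slc7a11, Gclc, Gclm, Nqo1, Txnrd1, Gsr and Nfe2l2, and the lowest for Srxn1 and Gpx4. Nfe2l2 stood at 468.3, 850.4 and 508.9 CPM in CD38KO + MSU against 328.2, 473.9 and 465.5 CPM in its controls, a log2FC of 0.53 ± 0.47 (adjusted p = 0.65, edgeR). Srxn1 stood at 225.5, 51.7 and 256.5 CPM against 130.9, 112.5 and 16.6 CPM (log2FC 1.04 ± 0.75, adjusted p = 0.55). In each of the 2 CD38KO groups a single library, 2 and 3 in turn, was far below the others, so the Srxn1 values of the groups overlapped. Gclm had a log2FC of 0.32 ± 0.31 (adjusted p = 0.69) and Nqo1 of 0.10 ± 0.54 (adjusted p = 0.96). Gsr stood at 34.7 to 45.2 CPM and 46.5 to 55.8 CPM (log2FC 0.40 ± 0.37, adjusted p = 0.66). Keap1 had a log2FC of 0.22 ± 0.18 and Gpx4 of 0.22 ± 0.31 (adjusted p = 0.62 and 0.81).

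Whether the response to MSU crystals differed between CD38KO and WT was tested by the interaction. It was called for 0 of the 10 genes and for 0% of tested genes by edgeR, with 427 of all tested genes and 1 of the 10 (Gclc) at an unadjusted p under 0.05. DESeq2 called 20 genes and limma 1 gene, none of them among the 10. The difference in log2FC, CD38KO minus WT, was -1.18 ± 0.49 for Gclc, -0.89 ± 0.44 for Gclm, -1.75 ± 1.06 for Srxn1, -0.66 ± 0.65 for Txnrd1 and -0.27 ± 0.61 for Slc7a11. A smaller response in CD38KO is thus not shown for any of these genes, although more were called in WT.

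The genotypes were also compared directly. In non-treated cells Slc7a11 had the largest difference of the 10 genes and stood at 8.17 to 11.7 CPM in CD38KO and 23.1 to 36.4 CPM in WT, with no overlap (log2FC -1.59 ± 0.44, adjusted p = 0.0535, edgeR), just outside the threshold. With Gsr, at 34.7 to 45.2 CPM against 50.4 to 96.3 CPM, 2 of the 10 genes were lower in every CD38KO library, where 11.4% of tested genes were. None of the 10 was called, where 0.366% of tested genes were called higher and 3.96% lower, and 1 (Slc7a11) had an unadjusted p under 0.05. DESeq2 called Slc7a11 lower (adjusted p = 0.0058), as did edgeR's fit without CD38KO + MSU replicate 1 (0.026), 2 (0.0051) or 3 (0.038). The other 9 genes had log2FC between -0.87 (Nqo1) and 0.02 (Gpx4).

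Under MSU crystals Slc7a11 was called lower in CD38KO, at 27.7, 117.3 and 37.8 CPM against 148.7, 227.8 and 285.5 CPM in WT (log2FC -1.86 ± 0.44, adjusted p = 0.031, edgeR). It was the only 1 of the 10 called by edgeR, where 2.65% of tested genes were called lower and 0.715% higher. The call was lost without CD38KO + MSU replicate 1 (adjusted p = 0.13) or 3 (0.11) and without WT + MSU replicate 2 (0.11) or 3 (0.074). Gclc and Gclm lay at the threshold, Gclc with a log2FC of -1.29 ± 0.35 (adjusted p = 0.0502) and Gclm of -1.15 ± 0.31 (adjusted p = 0.0504). Without CD38KO + MSU replicate 2 both passed (adjusted p = 0.015 and 0.032), and DESeq2 called both lower (0.0089 and 0.0098) together with Srxn1 (0.0399). In 5 of the 10 genes every CD38KO library was lower (Slc7a11, Gclc, Gclm, Srxn1 and Gsr), where 12.4% of tested genes were.

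Srxn1, at 51.7 to 256.5 CPM in CD38KO + MSU and 586.3 to 913.5 CPM in WT + MSU, had a log2FC of -2.04 ± 0.77 (adjusted p = 0.15, edgeR). Gpx4 was the exception in direction, with every CD38KO library higher at 271.0 to 497.7 CPM against 184.2 to 268.9 CPM (log2FC 0.66 ± 0.32, adjusted p = 0.26), as 15.3% of tested genes were. Txnrd1, Nqo1, Gsr and Nfe2l2 had log2FC of -0.86, -1.02, -0.88 and -0.44, at adjusted p of 0.32, 0.32, 0.19 and 0.66. Keap1 stood at 55.3 to 62.7 CPM in CD38KO and 50.3 to 64.4 CPM in WT under MSU crystals, so its levels lay within the same range. The summed fibroblast markers were 150.0 to 323.8 CPM in CD38KO + MSU and 659 to 3850 CPM in WT + MSU, so they too were lower in CD38KO. Their part in the result was not tested, and a smaller number of other cells cannot be told apart from less RNA per cell in bulk samples. With the WT groups reduced to library 3, Slc7a11 had a log2FC of -2.23 ± 0.69 and none of the 10 genes was called.

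The comparisons with apigenin carry a wide change of the whole transcriptome. With apigenin alone the transcripts of Nfe2l2, Keap1 and Txnrd1 were called lower, 3 of the 10 genes, where 22.2% of tested genes were called lower. Gpx4 alone was called higher (1 of 10), where 13.1% of tested genes were. In both directions the count was near the share of all tested genes. The same 3 genes were lower and Gpx4 higher in every treated library, as were 32% and 27% of tested genes. Nfe2l2 stood at 38.7, 64.3 and 132.5 CPM in WT + apigenin libraries 1, 2 and 3, against 459.1, 429.2 and 535.7 CPM in controls. It was thus 6.05-fold lower (log2FC -2.60 ± 0.50, adjusted p = 0.00064, edgeR), with library 3 the highest of the treated group. Keap1 stood at 17.1, 20.3 and 23.9 CPM against 54.0, 54.3 and 47.7 CPM (log2FC -1.35 ± 0.18, adjusted p = 4.7e-05). Txnrd1 stood at 54.3, 64.6 and 91.7 CPM against 145.0 to 238.3 CPM (log2FC -1.37 ± 0.46, adjusted p = 0.024). The Nfe2l2 and Keap1 calls held in all 18 fits without 1 library, and the Txnrd1 call was lost without WT + apigenin replicate 1 (adjusted p = 0.084) or 2 (0.066) or WT non-treated replicate 3 (0.082).

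The remaining NRF2 targets did not pass the test under apigenin alone. Slc7a11 stood at 32.4, 19.2 and 20.8 CPM (log2FC -0.26 ± 0.43), Gclc at 22.6, 21.2 and 33.8 CPM (-0.45 ± 0.34) and Gclm at 59.0, 59.5 and 103.7 CPM (0.07 ± 0.31), with adjusted p of 0.64, 0.29 and 0.86. Summed with Gm17494, Gclm was called higher (1.21, adjusted p = 0.021). Nqo1 at 11.1 to 15.2 CPM, Srxn1 at 49.4 to 99.4 CPM and Gsr at 52.4 to 123.6 CPM had adjusted p of 0.81, 0.47 and 0.66. Gpx4 rose from 228.5, 210.7 and 457.3 CPM to 474.2, 547.7 and 783.1 CPM (log2FC 1.01 ± 0.32, adjusted p = 0.016, edgeR). That call, though not the direction, rests on the scaling: with library totals in place of TMM factors, a change that lowered the median log2FC of all tested genes by 0.69, Gpx4 had a log2FC of 0.32 (adjusted p = 0.34) and Gclc was called lower (-1.16, adjusted p = 0.0062). With library totals 2.8% of all called genes were higher, and with TMM factors 37.1%. The Gpx4 call was also lost without WT + apigenin replicate 3 (adjusted p = 0.073) and without WT non-treated replicate 1 (0.069) or 2 (0.072).

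In cells that also received MSU crystals, apigenin lowered 7 of the 10 genes, where 25.8% of tested genes were called lower. These were Nfe2l2, Keap1, Slc7a11, Gclc, Gclm, Txnrd1 and Srxn1, and the WT + MSU libraries serve here as the control and in the MSU comparison as the treated group. The fit did not pair libraries by replicate number, although same-numbered libraries deviated together here (correlations of 0.131 to 0.392). With the number as a block, Nqo1 was called lower as well (-1.17, adjusted p = 0.013, edgeR). In the same 7 genes all libraries with apigenin were lower, as in 36% of tested genes, and in Gpx4 all were higher, as in 29.7%. Slc7a11 stood at 16.2, 22.5 and 14.0 CPM in WT + MSU + apigenin against 148.7, 227.8 and 285.5 CPM in WT + MSU, 12.6-fold lower (log2FC -3.65 ± 0.48, adjusted p = 1.9e-05, edgeR). Gclc stood at 16.3, 18.1 and 38.7 CPM against 123.7, 162.4 and 129.8 CPM (log2FC -2.51 ± 0.36, adjusted p = 4.5e-05). Both genes were then no higher than the highest non-treated library. Nfe2l2 stood at 37.1, 38.8 and 133.0 CPM against 716.7 to 907.2 CPM, 11.9-fold lower (log2FC -3.57 ± 0.52, adjusted p = 4.6e-05). Keap1 stood at 14.0, 20.2 and 23.3 CPM against 50.3 to 64.4 CPM (log2FC -1.61 ± 0.19, adjusted p = 6.6e-06). The transcripts of NRF2 and of its inhibitor were both low in all 3 libraries.

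Txnrd1 stood at 48.2, 15.4 and 90.8 CPM with both agents (log2FC -3.64 ± 0.51, adjusted p = 3.1e-05, edgeR), and Srxn1 at 8.88, 39.4 and 82.6 CPM (log2FC -4.07 ± 0.84, adjusted p = 0.00084). The 3 libraries were wide apart in both genes, yet all lay below every WT + MSU library. Gclm stood at 42.9, 57.5 and 33.1 CPM (log2FC -1.87 ± 0.32, adjusted p = 0.00017). Gm17494, the gene on the opposite strand, stood at 388.4, 177.6 and 350.9 CPM against 122.4, 221.6 and 204.3 CPM. Its groups overlapped, with means of 305.6 ± 112.5 CPM with both agents and 182.8 ± 53.0 CPM in WT + MSU (SD, n = 3). In FPKM, which carries no TMM factors, the means were 23.7 ± 8.26 and 22.8 ± 6.66 (SD, n = 3). Gclm summed with Gm17494 had a log2FC of 0.02 ± 0.40 (adjusted p = 0.97). The Gclm values are therefore uncertain. Gpx4 was called higher, at 607.1, 543.1 and 685.1 CPM against 216.3, 184.2 and 268.9 CPM (log2FC 1.46 ± 0.32, adjusted p = 0.0014), 1 of 10 genes where 18% of tested genes were called higher. With library totals its log2FC was 0.75 (adjusted p = 0.024), under the fold threshold, the median of all tested genes fell by 0.71, and the share of higher genes among all called genes was 6.8% in place of 41.1%.

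Nqo1 stood at 3.66, 7.02 and 14.7 CPM against 16.1, 13.2 and 24.8 CPM (log2FC -1.09 ± 0.55, adjusted p = 0.10, edgeR). It was called lower with the replicate number as a block (log2FC -1.17, adjusted p = 0.013), with library totals (0.0087) and without WT + MSU + apigenin replicate 3 (0.022). Gsr stood at 49.7, 48.8 and 108.9 CPM against 90.0, 84.0 and 111.4 CPM (log2FC -0.46 ± 0.37, adjusted p = 0.29) and was called lower with library totals (-1.19, adjusted p = 0.0032). In both genes the groups overlapped. With the WT groups reduced to library 3, 5 of the 10 genes were called, and Gclc (-1.75, adjusted p = 0.072), Srxn1 (-2.83, 0.20) and Gpx4 (1.35, 0.091) were not. With the apigenin libraries grouped by the treatment tag, 8 of the 10 genes were called again, 4 with apigenin alone.

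When apigenin was present, none of these genes passed the test for MSU crystals. 0 of the 10 were called by edgeR, where 0.0166% of tested genes were called higher and 0.0416% lower, 1 (Gclm) had an unadjusted p under 0.05, and DESeq2 and limma called 0. Gclm, at 33.1 to 57.5 CPM with both agents against 59.0 to 103.7 CPM with apigenin alone, was the only 1 of the 10 without overlap, lower with MSU crystals (log2FC -0.73 ± 0.31, adjusted p = 0.74), as 5.09% of tested genes were, and none was higher in every library, as 3.11% were. These directions follow the titles. The treatment tag exchanges the 2 compared groups and so reverses them. The interaction tested whether the response to MSU crystals differed, in either direction, with and without apigenin. It was called for Slc7a11 (-3.39 ± 0.63, adjusted p = 0.018, edgeR) and Gclm (-1.95 ± 0.44, adjusted p = 0.044), 2 of 10 where 0.69% of tested genes were called lower and 0.358% higher. Gclc lay just outside (-2.06 ± 0.49, adjusted p = 0.053), followed by Txnrd1 (-2.28 ± 0.65, adjusted p = 0.104) and Srxn1 (-3.40 ± 1.08, adjusted p = 0.14). With the replicate number as a block, Gclc was called (-2.14, adjusted p = 0.017) and Gclm was not (-1.92, adjusted p = 0.056).

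The Slc7a11 interaction was lost without WT + MSU + apigenin replicate 1 (adjusted p = 0.051) and without WT non-treated replicate 2 (0.055). That of Gclm was lost in 12 of 18 fits without 1 library, at adjusted p of 0.056 to 0.11, namely without any single WT + MSU library, WT non-treated replicate 1 or 2, CD38KO + MSU replicate 1, CD38KO non-treated replicate 1 or 3, replicate 1 or 3 of WT + apigenin, or replicate 1 or 3 of the group with both agents. It was also lost when summed with Gm17494 (-1.19, adjusted p = 0.36). DESeq2 called the interaction for 5 of the 10 genes, adding Gclc (adjusted p = 0.0042), Txnrd1 (0.0198) and Srxn1 (0.01996). With the treatment tag as the grouping it was called for none, with -2.48 for Slc7a11 (adjusted p = 0.060) and -0.48 for Gclm (adjusted p = 0.69).

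**Figure D2:**
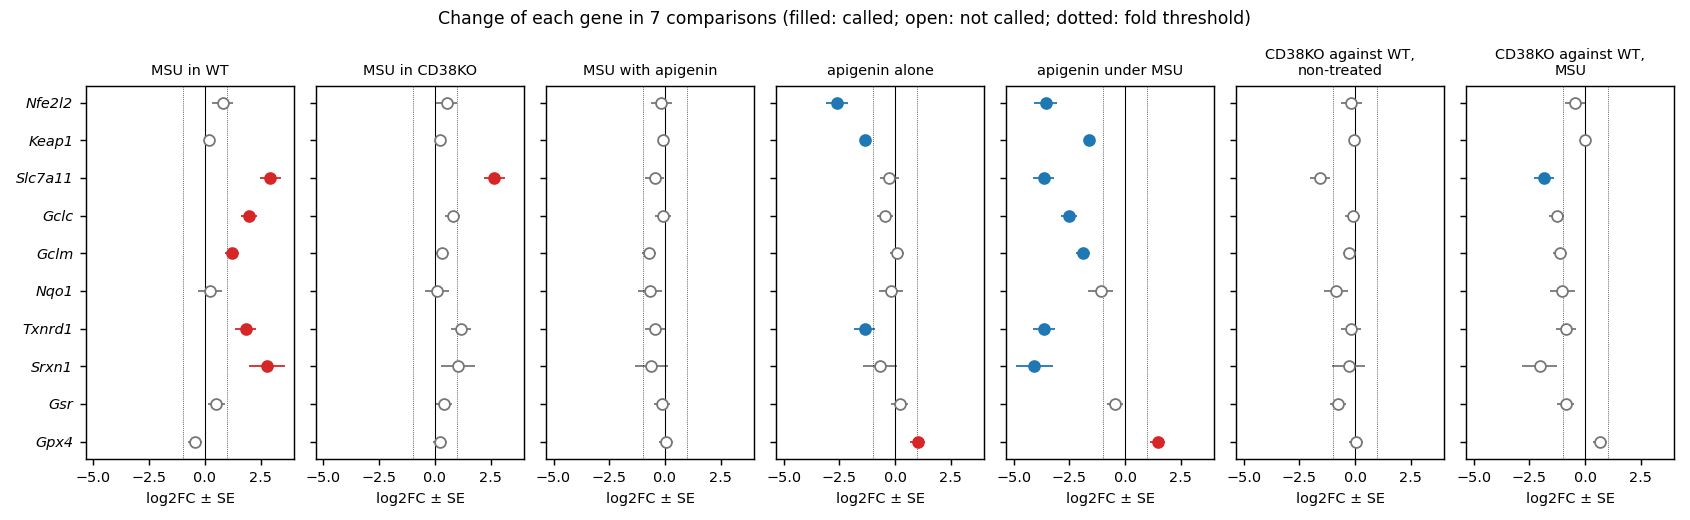
The log2FC ± SE of the 10 genes in 7 comparisons from 1 edgeR fit, with filled points for called genes (red higher, blue lower), open points for the others and dotted lines at the fold threshold of 1. MSU crystals raised 5 genes in WT and Slc7a11 in CD38KO, and apigenin under MSU lowered 7 genes, with Slc7a11 at 2.93, 2.67 and -3.65 in these 3 comparisons.

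Ratios of partner genes within a library do not depend on library scaling. The Gclc to Gclm ratio of FPKM sets the catalytic over the modifier subunit. It was 0.868, 0.968 and 0.732 in WT non-treated and 1.43, 1.52 and 1.30 in WT + MSU. The log2 difference was 0.73, with no overlap. The exact two-sided permutation test gave p = 0.1, the smallest p that 3 against 3 libraries allow. It therefore could not decide whether Gclc rose by more than Gclm. With apigenin alone the ratio was 0.639, 0.594 and 0.546, below every control (log2 difference -0.52, exact permutation p = 0.1). In the other groups it ranged from 0.527 to 1.95, with 1 library apart in WT + MSU + apigenin (replicate 3) and in CD38KO non-treated (replicate 2, 1.59). The ratio carries the uncertainty of Gclm named above. The Nfe2l2 to Keap1 ratio was 10.5, 9.77 and 13.9 in WT non-treated and 13.8, 21.1 and 18.5 in WT + MSU (log2 difference 0.64, exact permutation p = 0.2). With apigenin it fell to 2.80, 3.91 and 6.86 alone and 3.29, 2.38 and 7.06 under MSU crystals, with no overlap with the matching group in either case (log2 differences -1.42 and -2.20, exact permutation p = 0.1 for each). In every apigenin library the transcript of the factor was thus lower relative to that of its inhibitor than in any library of the matching group. Over the 14 ratio comparisons, 7 for each ratio, the smallest Benjamini-Hochberg adjusted permutation p was 0.35.

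**Figure D3:**
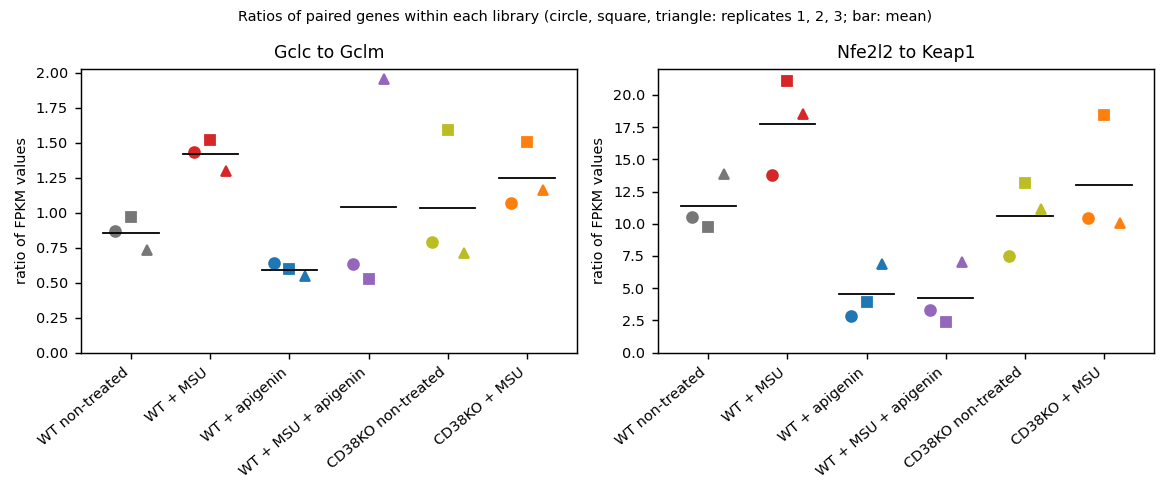
Ratio of FPKM values of Gclc to Gclm and of Nfe2l2 to Keap1 in every library (linear axis from 0), by group, with circles, squares and triangles for replicates 1, 2 and 3 and a bar for the mean. The Gclc to Gclm ratio was 1.30 to 1.52 in WT + MSU and 0.732 to 0.968 in WT non-treated, and the Nfe2l2 to Keap1 ratio was 2.38 to 7.06 in the 6 apigenin libraries.

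Around these 10 genes, 4 wider textbook lists were counted in the same fit. With MSU crystals in WT, where 2.03% of all tested genes were called higher and 1.55% lower, 2 of 14 tested NRF2 partners and regulators were called higher, 2 of 32 genes of glutathione synthesis, transport and use higher, 2 of 17 genes of the thioredoxin and peroxiredoxin system lower, and 1 of 25 other NRF2 targets higher and 1 lower. The medians of the lists were 0.10, -0.07, 0.13 and 0.04, against -0.03 for all tested genes. The genes called higher were Maff, a small MAF partner of NRF2 (log2FC 3.17), Sqstm1, whose p62 protein sequesters KEAP1 (1.52), Chac1, a glutathione-degrading enzyme (2.23), Slc3a2, the heavy chain that pairs with SLC7A11 (1.46), and Hmox1, haem oxygenase (1.83). Those called lower were Sesn1 (-1.84), Msrb2 (-1.61) and Idh1 (-1.497), which encode a sestrin, a methionine sulfoxide reductase and a source of NADPH, respectively. In CD38KO, where 1.52% of tested genes were called higher and 0.482% lower, Sqstm1 (1.30), Chac1 (2.69), Slc3a2 (1.30) and Gpx8 (2.08) were called higher and Idh1 (-1.26) lower, and Hmox1 had a log2FC of 0.76 (adjusted p = 0.065, edgeR). The Gpx8 call was lost with library totals (adjusted p = 0.085).

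The comparison of apigenin under MSU had many calls in all 4 lists, as over all tested genes, of which 18% were called higher and 25.8% lower. The partners and regulators of NRF2 held 7 genes called lower of 14 and none higher, with a median of -1.12. The examples with the largest change were Sqstm1 (-3.50), Bach1, a repressor that competes for antioxidant response elements (-3.29), and the small MAF genes Mafg (-3.06) and Maff (-2.90). The glutathione list held 14 genes higher and 3 lower of 32 (median 0.91), the thioredoxin and peroxiredoxin list 3 higher and 1 lower of 17 (0.66) and the other targets 6 higher and 4 lower of 25 (0.46), against a median of -0.05 over all tested genes. The share of higher genes in the thioredoxin and peroxiredoxin list was near that of all tested genes. Higher were Gstk1 (1.83), the peroxiredoxins Prdx2 (1.70) and Prdx4 (1.34), mitochondrial thioredoxin Txn2 (1.59), and Tkt (1.41) and Taldo1 (1.33) of the pentose phosphate pathway. Lower were Slc3a2 (-1.92), Chac2 (-2.04), Sesn1 (-1.48), Hmox1 (-2.91) and Cbr3 (-1.47). Chac1 had 0 counts in all 3 WT + MSU + apigenin libraries and 10.2 ± 2.29 CPM (SD, n = 3) in WT + MSU, at least 152.4-fold lower against a floor of 3 counts per library. The list median stayed at 0.91 with Chac1 at that bound.

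Most higher calls in these lists rest on the TMM scaling. With library totals, 2 glutathione genes, 0 thioredoxin and peroxiredoxin genes and 0 other targets were called higher, while 9 partners and regulators, 4 glutathione genes, 3 thioredoxin and peroxiredoxin genes and 5 other targets were called lower. The list medians were then -1.84, 0.20, -0.05 and -0.26 in the same order, so that the sign turned for the last 2 lists. With apigenin alone, 4 partners and regulators were called lower and none higher (median -0.63), and the other lists, in the same order, held 10, 6 and 6 genes higher and 2, 1 and 2 lower, where 13.1% of tested genes were called higher and 22.2% lower. With library totals 7 partners and regulators were lower, and the other lists held 1, 0 and 0 genes higher and 4, 3 and 6 lower. Bach1 (-2.80), the coactivators Ep300 (-1.999) and Crebbp (-1.35), and Sqstm1 (-1.75) were the lower regulators. The interaction of MSU crystals with apigenin was called for Sqstm1 (-1.76), Slc3a2 (-1.35) and Hmox1 (-1.91), and with the opposite sign for Idh1 (1.32), where 0.69% of tested genes were called lower and 0.358% higher. It was also called for Chac1 (adjusted p = 0.0024, edgeR), for which no fold is given because its counts were 0 in all 3 libraries with both agents. Which libraries received both agents follows the titles here, and the lists were not counted by the treatment tag. Under the tag the interaction was called for none of the 10 genes.

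In CD38KO against WT under MSU crystals, 5 of 32 glutathione genes were called lower and 1 higher, where 2.65% of tested genes were called lower and 0.715% higher. Gpx7 (-2.85), Gpx8 (-2.42), Gstt1 (-2.11) and Ggt5 (-1.99) were the largest, at mean levels of 0.645 to 3.35 CPM in CD38KO and 3.98 to 17.9 CPM in WT. In non-treated cells the same 4 genes were called lower, at -3.03, -4.64, -2.59 and -2.47. These 4 genes were lower in CD38KO, as were the fibroblast markers given above, whose part in the result was not tested.

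**Figure D4:**
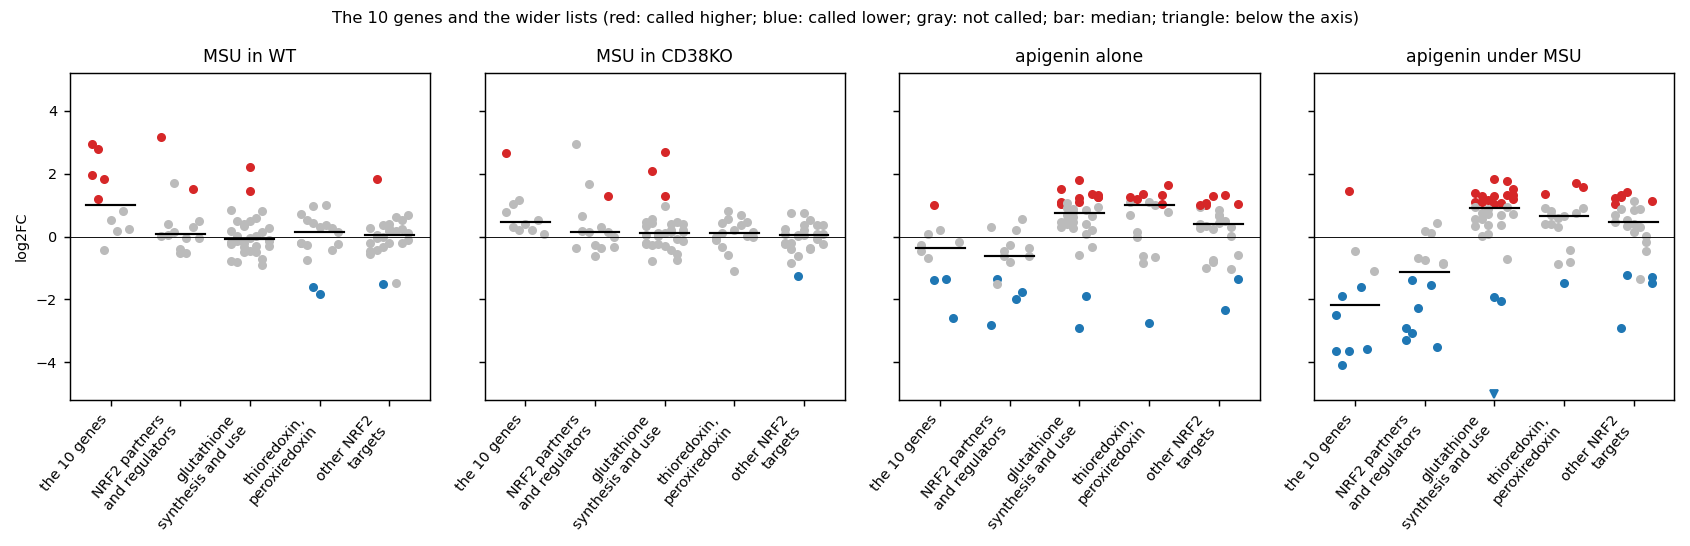
The log2FC of the 10 genes and of the tested genes of 4 wider lists in 4 comparisons, with red and blue points for genes called higher and lower, gray for the others, a bar for the median and a triangle for a gene below the axis. Under apigenin with MSU crystals the median was -1.12 for NRF2 partners and regulators and 0.91 for the glutathione list.

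Across the 18 libraries the 10 genes did not move as one. The correlation of log2 CPM was 0.96 between Nfe2l2 and Keap1, 0.92 between Nfe2l2 and Txnrd1, 0.90 between Gclc and Txnrd1, 0.84 between Slc7a11 and Gclc and 0.79 between Gclc and Gclm. Gpx4 ran against Nfe2l2 (-0.74) and Keap1 (-0.75), and Nqo1 was highest with Gsr (0.65). These are descriptions over 18 libraries that share treatment groups, scaling and, in WT, the libraries high in other cells' markers. Over all tested genes, the closest to Slc7a11 were Ripk2 (0.95), Adora2a (0.94) and Gprc5a (0.94), and the closest to Gclc were Tnfsf18 (0.94), Vegfa (0.93) and Rasd2 (0.93). The closest to Gpx4 were Brk1 (0.98), Cox7c (0.98) and Myl6 (0.98). For Nqo1 the highest correlations were lower, with Tagap (0.80), Mrgbp (0.79) and Snord12 (0.78).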

How the data were processed

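Poly(A) RNA of 18 BMDM libraries was sequenced from stranded libraries. The authors deposited 1 table with counts and FPKM values for 55450 genes, the FPKM being their scaling for length and depth, and a second table of log2 ratios of their own comparisons, which was not used here. HISAT2 and StringTie, with cutadapt, FastQC and edgeR, are named in the submitters' processing notes, and the sources used here give no build. All 55450 gene IDs match GENCODE M21 on GRCm38, and promoter stretches are from RefSeq on GRCm38.p6.

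Counts were analysed with edgeR 4.0.16 (R 4.3.3) in 1 quasi-likelihood fit of 6 groups with TMM factors, with Benjamini-Hochberg adjustment over the 12025 genes that reached an FPKM of 1 in 3 or more libraries. Calls needed a log2FC of 1 in size besides an adjusted p below 0.05. The SE is the log2FC over the square root of F. The fit was tested on simulated counts in which genes were changed in WT + MSU only, so that test does not cover the scaling under apigenin. Levels are CPM with TMM factors, and genes were compared with each other by FPKM. Replicates differed by more than sampling noise in every group. Interactions are differences between the log2FC of MSU crystals. Alternatives were other scalings, filters and fits, DESeq2 1.42.0, limma 3.58.1 on log2(FPKM + 0.5) and log2(FPKM + 0.1), and fits without each library.

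Replicate numbers come from the titles. Libraries of the same number deviated together in the apigenin comparisons (correlations of 0.131 to 0.556 over the pairs), which by the rule used pairs them there, and not in every pair of the other comparisons. All 10 genes were named, with, from each wider list, up to 4 called genes of largest log2FC without overlap between groups, and the 3 closest correlates of Gclc, Slc7a11, Nqo1 and Gpx4. Gm17494, the values of Hmox1 in CD38KO and the correlations among the 10 genes were chosen after values were seen. The 10 genes and the lists were chosen with earlier results of these data known.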

Additional observations from a re-analysis of the deposited data

Results flagged for a closer look

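The response to MSU crystals differed with and without apigenin for Slc7a11, by a log2 difference of -3.39 in the interaction test. This call was lost in 4 of 31 alternatives, among them the grouping by treatment tag (-2.48, adjusted p = 0.060, edgeR). For Gclm, whose counts share a stretch with Gm17494 on the opposite strand, the difference was -1.95 and the call was lost in 19 of 31 alternatives. These included the replicate block (-1.92, adjusted p = 0.056, edgeR), 12 of the 18 fits without 1 library and the treatment tag (-0.48, adjusted p = 0.69).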

How the results depend on the processing

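Of the 21 calls of the 10 genes over 9 comparisons, 5 held in every alternative and 13 in all 18 fits without 1 library. Of the 69 values not called, 12 were called in some alternative. Without 1 library, the number of genes called ranged from 2 to 5 for MSU in WT, 3 to 4 for apigenin alone, 8 to 9 for apigenin under MSU, 0 to 1 for CD38KO against WT non-treated, 0 to 3 for CD38KO against WT under MSU and 0 to 3 for the interaction with apigenin. With the WT groups reduced to library 3, the counts were 0 for MSU in WT, 0 for MSU in CD38KO, 1 for apigenin alone, 5 for apigenin under MSU, 0 for CD38KO against WT under MSU and 0 for the interaction with apigenin. Without a filter on low values they were 2 for MSU in WT and 1 for that interaction. Fitted alone, the compared groups gave 0 for MSU in CD38KO, 1 for CD38KO against WT non-treated, 0 under MSU and 1 for the interaction. CD38KO against WT non-treated had 1 call, and under MSU 3 calls, with library totals, with upper-quartile scaling and with limma at 0.1. Limma at 0.5 gave 3 calls for CD38KO against WT under MSU and 4 for the interaction, and DESeq2 gave 1 for CD38KO against WT non-treated, 4 under MSU and 5 for the interaction. The interaction had 1 call with filterByExpr, 1 with Gclm summed with Gm17494 and 0 by the treatment tag. The cause of these differences was not tested. Summing Gclm with Gm17494 turned its log2FC under apigenin with MSU from -1.87 to 0.017 (adjusted p = 0.97), a setting chosen after seeing the data. With the replicate block the counts were 5 for MSU in WT, 1 for MSU in CD38KO, 4 for apigenin alone and 9 for apigenin under MSU. They were 0 for MSU with apigenin, 2 for the interaction with apigenin and 0 for that with CD38KO. The block was set within each genotype, so for CD38KO against WT this fit contrasts the fitted levels of replicate 1. Its counts there, 1 without and 3 with MSU, do not compare the group means. The Nqo1 call of CD38KO against WT under MSU came from that fit alone. Outside the apigenin comparisons the numbers do not pair the libraries in every pair, with correlations of 0.094, 0.450 and 0.537 for MSU in WT. The own number was the best match for every library only with apigenin under MSU. It was not with apigenin alone, for MSU with apigenin or in the comparisons without apigenin.

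Groups of 3 and the spread of Srxn1 and Gclm limit the calls near the threshold, and a level of 0 counts limits Chac1. The size of changes under apigenin is relative to the TMM scaling, and the Gpx4 calls and most higher calls in the wider lists rest on it. Of the 10 genes, the 3 called lower with apigenin alone and the 7 called lower under MSU stayed called with library totals.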
